A study of Mus musculus with 3 samples.

Results

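The semaphorin signalling genes examined here were the 31 mouse genes that encode semaphorins (20 genes), plexins (9 genes) and neuropilins (2 genes), and the data were the Foxf2-FLAG binding sites found around them in the embryonic tongue. A site was assigned to a gene when the midpoint of its ChIP-seq peak had its nearest protein-coding transcription start site (TSS) in that gene. By this rule 156 of the 25704 peaks on assembled chromosomes belonged to 21 of the 31 genes, and 10 genes had none.

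Foxf2 is a forkhead transcription factor. Tongues were taken at E12.5 from embryos in which CRISPR/Cas9 editing had placed a 3xFLAG tag on both endogenous copies of Foxf2, and the labels give 75 tongues but not whether that many went into each library. Chromatin from these Foxf2FLAG/FLAG embryos gave 2 libraries precipitated with anti-FLAG antibody and 1 unprecipitated input library, so the control chromatin carried the tagged allele too. The authors' single list of peaks called against the input was analysed, which gives each peak its mm10 position, its score and its focus ratio (a measure of how sharply the signal is centred). No value belonged to a single library, so the depth was unknown and no value below has a replicate error or a test. The labels list no FLAG precipitation from untagged tissue, so recovery of chromatin without Foxf2 and binding of Foxf2 cannot be told apart at any peak. The libraries were genomic DNA from whole tongue, in which neither the cell type that gave a peak nor the expression of a gene was measured.

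Semaphorins are guidance ligands that attract or repel axons, endothelial cells, neural crest cells and other migrating cells. Class 3 semaphorins are secreted and mostly bind a neuropilin, which pairs with a class A plexin as the signalling receptor, while Sema3e binds plexin D1 directly. Semaphorins of classes 4 to 7 are anchored in the membrane and bind plexins without a neuropilin in most cases. Plexins signal through a cytoplasmic GTPase-activating domain that acts on small GTPases, and neuropilins are also co-receptors for vascular endothelial growth factor. In the head, these proteins are known for guiding cranial nerves, vessels and neural crest streams.

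The 4 peaks shown first had the highest score of their role among the 156 peaks, the roles being secreted ligand, membrane ligand, receptor and co-receptor. They are written on the plus strand of mm10, 5′ to 3′, with each match to a forkhead core in capitals. The core was any of the 4 forms GTAAACA or GTAAATA or ATAAACA or ATAAATA on either strand, so that a match on the minus strand reads TGTTTAC or TGTTTAT. The Nrp2 peak held none of the 4 forms, and its capitals mark the shorter run TAAACA on the minus strand, a motif chosen after the data were seen that is also part of GTAAACA and ATAAACA.
Sema3c, chr5:17601933-17602145, score 93.6: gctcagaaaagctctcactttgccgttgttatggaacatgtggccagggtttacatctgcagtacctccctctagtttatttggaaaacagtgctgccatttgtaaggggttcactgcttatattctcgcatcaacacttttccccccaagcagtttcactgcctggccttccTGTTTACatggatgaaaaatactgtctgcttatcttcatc
Sema5a, chr15:32306988-32307200, score 112.2: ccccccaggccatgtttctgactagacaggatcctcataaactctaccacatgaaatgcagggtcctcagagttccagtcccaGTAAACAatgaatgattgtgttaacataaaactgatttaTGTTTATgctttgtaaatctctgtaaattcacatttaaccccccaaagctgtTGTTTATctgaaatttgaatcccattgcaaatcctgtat
Plxna2, chr1:194496634-194496846, score 76.3: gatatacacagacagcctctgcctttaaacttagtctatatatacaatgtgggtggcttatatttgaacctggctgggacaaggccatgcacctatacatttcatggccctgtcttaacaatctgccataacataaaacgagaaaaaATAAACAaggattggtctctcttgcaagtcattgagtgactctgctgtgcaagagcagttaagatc
Nrp2, chr1:62860963-62861175, score 74.3: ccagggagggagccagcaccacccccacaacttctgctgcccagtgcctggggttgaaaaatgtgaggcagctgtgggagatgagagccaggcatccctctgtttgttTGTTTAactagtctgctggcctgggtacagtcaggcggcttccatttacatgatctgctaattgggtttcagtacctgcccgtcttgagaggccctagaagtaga

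The Sema5a peak carried 3 cores, centred 20 bp before, 19 bp after and 71 bp after the peak midpoint. Single cores lay 70 bp after the midpoint in the Sema3c peak and 44 bp after it in the Plxna2 peak, and the TAAACA run of the Nrp2 peak lay 5 bp after the midpoint. A core lay within 20 bp of the midpoint in 77 of the 156 peaks (49.4%), against 52.3% of all peaks.

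The next set of sequences shows the core nearest the midpoint in the best peak of each other gene with a peak in the top decile of all scores (38.7 or higher), in windows of 41 bases read on the strand of the core. They are printed so that the bases beside these cores can be compared.
Sema3a, chr5:13084648-13084688, minus strand, score 64.8: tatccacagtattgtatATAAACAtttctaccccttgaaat
Plxna4, chr6:32535629-32535669, plus strand, score 55.4: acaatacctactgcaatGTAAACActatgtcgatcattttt
Sema3d, chr5:12590953-12590993, minus strand, score 54.9: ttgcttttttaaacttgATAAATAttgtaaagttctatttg
Sema3f, chr9:107698683-107698723, plus strand, score 49.2: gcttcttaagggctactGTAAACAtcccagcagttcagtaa
Sema4d, chr13:51750103-51750143, plus strand, score 45.8: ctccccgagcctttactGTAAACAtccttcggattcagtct
Nrp1, chr8:128443356-128443396, minus strand, score 43.5: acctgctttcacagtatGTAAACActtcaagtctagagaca
Plxnc1, chr10:94824484-94824524, plus strand, score 43.0: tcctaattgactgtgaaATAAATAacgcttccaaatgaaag

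GTAAACA was the core nearest the midpoint in 4 of these 7 windows, ATAAATA in 2 and ATAAACA in 1. The Sema3f and Sema4d windows shared the run TACTGTAAACATCC of 14 bases, which occurred in 5 peaks of the whole list (0.0195%) and was picked out after the windows were compared. Plxna4 and Nrp1 shared the 11 bases ATGTAAACACT. The other pairs shared at most 8 bases in a row.

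Of the 31 genes, 21 (67.7%) were nearest to at least 1 peak, against 37.3% of the 21938 protein-coding genes. Semaphorin, plexin and neuropilin genes include very long ones with wide spaces around them, so each gene was also read against genes of like territory, the territory being the bases nearer to a TSS of the gene than to that of any other protein-coding gene. In the territory deciles to which the 31 genes belonged, a mean of 51.6% of all genes had a peak. The largest decile (279 to 4430 kb) held 12 of the 31 genes, and all 12 had a peak, against 81.5% of all genes in it. Among the 31 genes, the number of peaks followed the territory with a Spearman rank correlation of 0.889, a description over genes that share 1 peak list, and over all protein-coding genes it was 0.556.

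**Figure D1:**
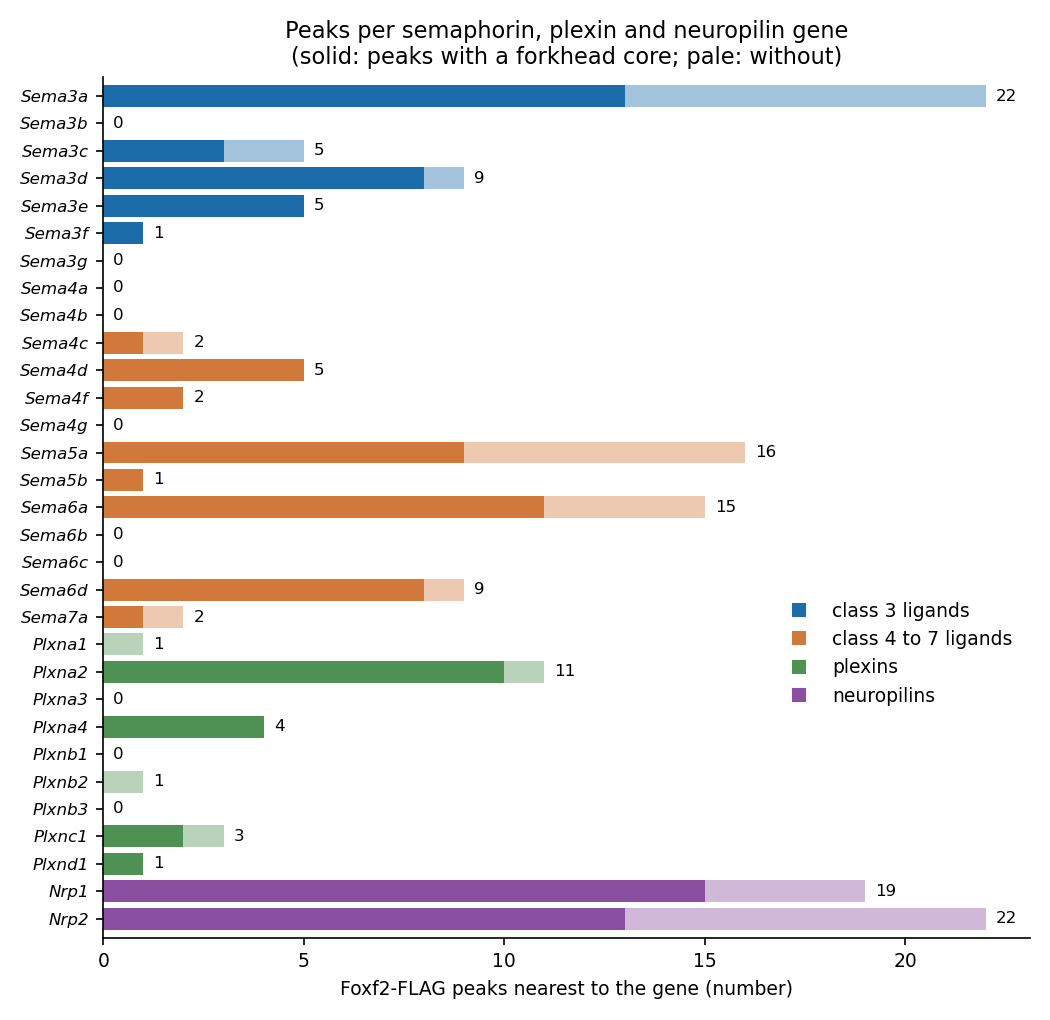
Number of Foxf2-FLAG peaks nearest to each of the 31 genes (horizontal axis), with solid bars for peaks holding a forkhead core in their central 200 bp and pale bars for peaks without one, coloured by role. Sema3a and Nrp2 had 22 peaks each and Nrp1 had 19, while 10 genes had 0.

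Peaks were concentrated on a few genes. Sema3a and Nrp2 (22 peaks each), Nrp1 (19), Sema5a (16), Sema6a (15) and Plxna2 (11) held 105 of the 156 peaks (67.3%). These 6 genes were 19.4% of the 31, whereas 2.26% of all protein-coding genes had 10 or more peaks, and all 6 lay in the largest territory decile. In that decile 6 of the 12 genes of the family (50%) had 10 or more, against 19.1% of all genes. Within that decile, 2.78% of the genes had 22 or more peaks, 4.79% had 19 or more, 7.52% had 16 or more, 8.93% had 15 or more and 16.2% had 11 or more. Another 10 genes had between 2 and 9 peaks, and Sema3f, Sema5b, Plxna1, Plxnb2 and Plxnd1 had a single peak.

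**Figure D2:**
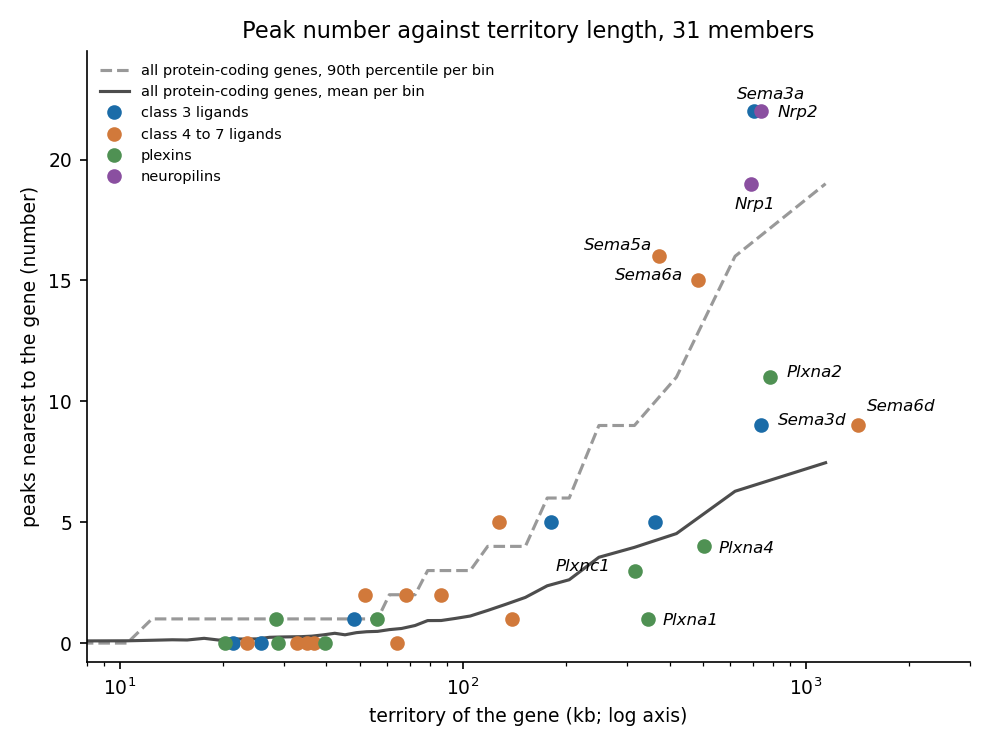
Number of peaks of each gene against its territory in kb (logarithmic axis), with the 31 genes coloured by role and all protein-coding genes of like territory as lines, solid for their mean and dashed for the value that marks their upper decile. Sema3a, Nrp2, Nrp1, Sema5a and Sema6a stand above the dashed line, as do Sema4d (5 peaks) and Sema7a (2 peaks) among the shorter territories, and Sema6d, with the longest territory of the 31 (1420 kb), had 9 peaks.

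Pooled over their territories, the 31 genes held 1.82 peaks per 100 kb, and all protein-coding genes together held 0.943. The neuropilins were the most densely occupied role (2.87 peaks per 100 kb), followed by the class 3 ligands (2.02) and the membrane ligands (1.76). The plexins (0.987) lay close to the value over all genes. A median of 1.22 peaks per 100 kb was found over the 31 genes, against 0 over all protein-coding genes, of which most had no peak. No test was made of the order of the roles, since a role holds between 2 and 13 genes of 1 list.

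The class 3 ligands, the secreted repellents and attractants of the family, had 42 peaks over 5 of 7 genes. Sema3a, the founding repellent of sensory and sympathetic axons, had 22 peaks with scores from 10.3 to 64.8 and a median of 17.7. Of these, 13 held a core. Its peaks ran from 482 kb upstream to 169 kb downstream of the nearest TSS of the basic transcript set, with 14 upstream and 8 downstream. Of the 14, 8 lay within the wider annotated span of Sema3a (chr5:13125414-13602565), which begins at longer transcripts outside that set, and 6 lay before it. The highest-scored peak (64.8, chr5:13084555-13084767) was 1 of those 6, lay between genes 312 kb upstream and carried 4 cores. Another of the 6, with a score of 20.9, was centred 95 bp upstream of the first base of that span, and it held no core and 2 copies of the E-box CATCTG.

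Sema3d, which guides cardiac and endothelial precursors and axons, had 9 peaks, with scores of 25.8, 48.0, 10.2, 14.3, 17.5, 54.9, 39.9, 14.6 and 13.2 from the 5′ to the 3′ side. A core was found in 8 of them, the exception being the 39.9 peak. The 3 peaks in the top decile of scores lay outside the gene, 64.3 kb upstream and 207 and 313 kb downstream of the TSS. The best of them (54.9, chr5:12590869-12591081) lay just past the 3′ end of the gene, in intergenic sequence, and held 4 cores.

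Sema3e, the ligand of plexin D1 in vessel patterning, had 5 peaks with scores of 24.7, 13.6, 13.4, 22.1 and 28.3, and all 5 held a core. The 28.3 peak lay in intron 9 of 16, 204 kb into the gene. Sema3c, which is required for septation of the cardiac outflow tract, also had 5 peaks, with scores of 11.6, 93.6, 11, 15.6 and 12.9. The 93.6 peak was in intron 2 of 17, ranked 205 of the whole list and stood far above the other 4, which scored 15.6 or less. Sema3f, the main ligand of neuropilin 2, had 1 peak (49.2, chr9:107698602-107698814, intron 2 of 17, 6.85 kb downstream of the TSS) with 2 cores. Sema3b and Sema3g had no peak.

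Sema3d, Sema3a and Sema3e are neighbours on chromosome 5, with starts spread over 1642 kb, and together held 36 of the 42 class 3 peaks (85.7%). Over their joint territory of 1806 kb this was 1.99 peaks per 100 kb. Speer3, a protein-coding gene that lies among them, had 5 peaks in a territory of 313 kb. Sema3c is on the same chromosome, so that 41 of the 42 class 3 peaks were on chromosome 5.

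**Figure D3:**
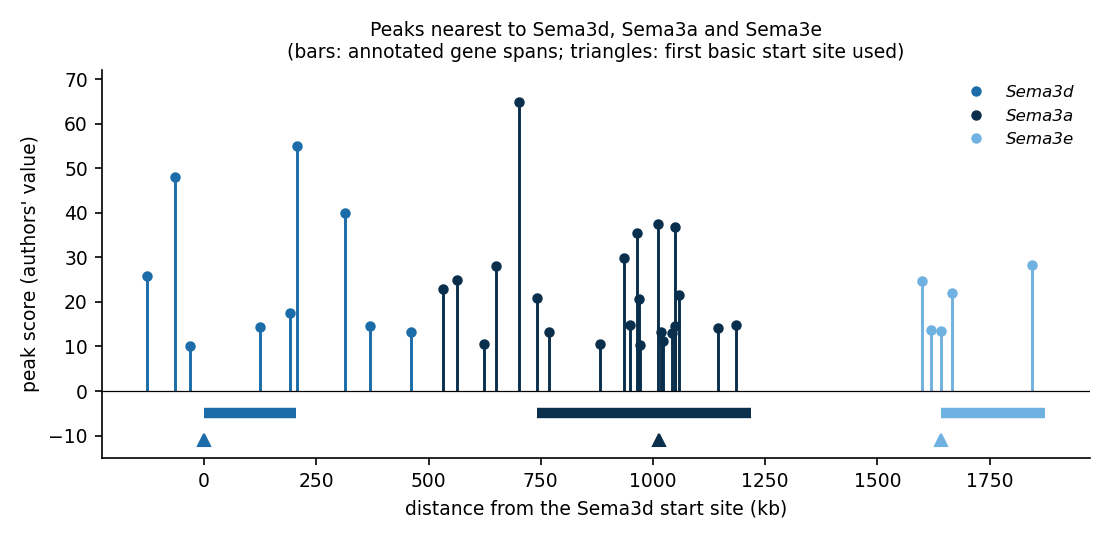
Peaks around Sema3d, Sema3a and Sema3e along chromosome 5, drawn as distance in kb against peak score, with a bar for the annotated span of each gene and a triangle for its first basic TSS. Sema3a had 22 peaks, Sema3d 9 and Sema3e 5, and the 3 highest scores were 64.8, 54.9 and 48.0.

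The membrane-bound ligands of classes 4 to 7 had 52 peaks over 8 of 13 genes. Sema5a, which carries thrombospondin repeats and can attract or repel axons, had 16 peaks, and all 16 lay inside the gene (chr15:32244810-32696341). Scores ran from 10.8 to 112.2 with a median of 15.7. Of the 16, 8 lay in intron 1 of 22, 1 in intron 2, 3 in intron 3 and 4 in intron 5. The 112.2 peak, at rank 98 the highest of the 156, and a 61.7 peak (chr15:32328663-32328875) were both in intron 1, 62.3 and 84.0 kb downstream of the TSS. The other 14 scored 23.2 or less, and 9 of the 16 held a core.

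Sema6a, a transmembrane ligand of plexins A2 and A4, had almost as many peaks (15), but their scores stayed between 10.1 and 23.4 with a median of 11.3. No Sema6a peak reached the top decile of scores. Of its 15 peaks, 11 held a core and 6 held GTAAACA, 5 lay inside the gene and 7 inside lincRNA genes upstream. Sema6d, a ligand of plexin A1 with roles in heart development, had 9 peaks, 8 of them inside the gene. Their scores ran from 10.7 to 31.1 with a median of 17.8, and 8 held a core.

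Sema4d, a ligand of plexin B1 also known from lymphocytes as CD100, had 5 peaks with scores of 45.8, 12.6, 11, 17.3 and 16.8. All 5 lay upstream of the nearest TSS, between 5.04 and 25.4 kb away, and all 5 held a core. The 45.8 peak (chr13:51750017-51750229) was inside the gene, in intron 2 of 15, and its nearest TSS, 15.4 kb away, is an internal one. The others lay between genes. Sema4f had 2 peaks (10.4 and 27.5), and so had Sema4c (the higher at 19.9) and Sema7a (24.2 and 10.7), whose product is held by a lipid anchor. Sema5b had 1 peak (18.2, intron 1 of 20). The lower peak of Sema4c lay inside Fam178b, and the 27.5 peak of Sema4f lay 886 bp upstream of the lincRNA Gm45145. Sema4a, Sema4b, Sema4g, Sema6b and Sema6c had no peak.

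**Figure D4:**
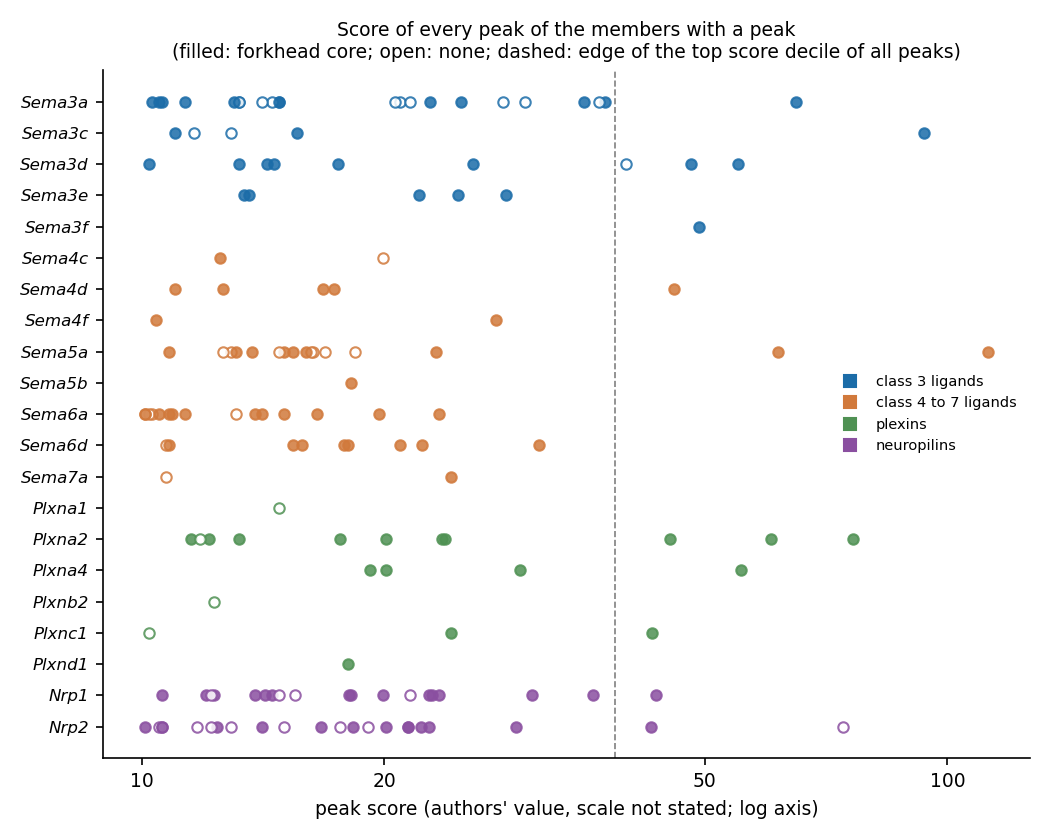
Score of every peak (the authors' value, logarithmic axis) for each gene with a peak, filled where the peak held a forkhead core and open where it did not, with a dashed line at the edge of the top decile of all scores. The highest points are 112.2 for Sema5a and 93.6 for Sema3c, and no Sema6a point lies above 23.4.

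The plexins, the signalling receptors, had 21 peaks over 6 of 9 genes. Plxna2, a receptor for class 3 ligands and for Sema6a, had 11, with scores of 45.2, 60.4, 20.1, 11.5, 17.6, 76.3, 23.6, 12.1, 13.2, 23.8 and 11.8 from the farthest to the nearest. All 11 lay upstream of the nearest TSS of the basic transcript set, from 512 kb to 886 bp away, and 10 of them held a core. The nearest of the 11 lay inside the wider annotated span of Plxna2. The 76.3 peak was intergenic, 123 kb upstream. The 60.4 peak (chr1:194223180-194223392), 397 kb upstream, lay 527 bp upstream of the noncoding gene 4930503O07Rik.

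Plxna4, a receptor for Sema3a and Sema6a, had 4 peaks with scores of 29.5, 20.1, 55.4 and 19.2. All 4 lay inside the gene and held a core, 2 of them in intron 1 and 2 in intron 3 of 31. The 55.4 peak (chr6:32535549-32535761) was in intron 1, 52.5 kb downstream of the TSS. Plxnc1, the receptor for Sema7a, had 3 peaks with scores of 43.0, 24.2 and 10.2, the first in intron 21 of 30. Plxnd1, the receptor for Sema3e in endothelial cells, had 1 peak, which scored 18 and held 3 cores in intron 9 of 35.

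Plxna1, which pairs with neuropilin 1, had a territory of 347 kb and a single peak of 14.8, in Chchd6 107 kb upstream. That is 0.288 peaks per 100 kb, the lowest density among the 31 genes with a peak. Plxnb2, a receptor for class 4 ligands, had 1 peak of 12.3 in intron 1 of 37. Neither the Plxna1 nor the Plxnb2 peak held a core. Plxna3, Plxnb1 and Plxnb3 had no peak.

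The neuropilins, the co-receptors of class 3 ligands, had 41 peaks over 2 of 2 genes, in territories of 690 kb (Nrp1) and 738 kb (Nrp2). Nrp1, the co-receptor for Sema3a, had 19 peaks with scores from 10.6 to 43.5 and a median of 18.1, and 15 held a core. They fell into 9 between genes, from 125 to 473 kb upstream, and 10 inside the gene, of which 4 were in intron 2 and 4 in intron 6 of 16. The 43.5 peak (chr8:128443269-128443481) was in intron 6. Nrp2, the co-receptor for Sema3f, had 22 peaks with scores from 10.1 to 74.3 and a median of 17.15, and 13 held a core. Of the 22, 9 lay in introns of Pard3b, the gene upstream, and 7 inside Nrp2. Its 2 highest, 74.3 and 42.9, lay outside both genes, 157 kb downstream and 10.9 kb upstream of the TSS. The 74.3 peak stood 689 bp from another peak, with a score of 29.1 and 1 core.

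GTAAACA was found in 3 of the 41 neuropilin peaks (7.32%, exact 95% interval 1.54 to 19.9), against 27.4% of all peaks. The other roles held it in 11 of 42 class 3 peaks (26.2%, 13.9 to 42.0), 16 of 52 peaks of the membrane ligands (30.8%, 18.7 to 45.1) and 7 of 21 plexin peaks (33.3%, 14.6 to 57.0). With all 4 core forms counted, the neuropilin share was 68.3% (51.9 to 81.9), near the 72.5% of all peaks. The intervals cover the counting of peaks only, peaks of a gene share a locus, and the difference between roles was not tested.

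Over all 156 peaks a core was found in 113 (72.4%, 64.7 to 79.3), the same level as in the whole list (72.5%). The class 3 ligands (71.4%), the membrane ligands (73.1%) and the plexins (81.0%, 58.1 to 94.6) had intervals that overlapped. ATAAACA was the most frequent form, in 41.7% of the 156 peaks and 38.1% of all peaks. It was followed by GTAAACA (23.7% against 27.4%), ATAAATA (16.0% against 13.5%) and GTAAATA (7.69% against 9.79%). At least 2 cores were found in 21.2% and 21.3%.

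Motifs of other factor families were searched on both strands of the same central 200 bp. The E-box CATCTG was in 32.7% of the 156 peaks (25.4 to 40.7), against 28.0% of all peaks. CAGCTG was in 17.9% and 18.7%, the TALE homeodomain motif TGACAG in 19.9% and 17.9%, and the TEAD motif GGAATG in 11.5% and 15.1%. Each share over all peaks lay inside the interval of the 156. Peaks with a core scored a median of 17.8 and those without 14.5, close to the medians over the whole list (17.1 and 14.4).

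The score had the same centre around these genes as elsewhere, with a median of 16.25 against 16.2 over all peaks, and the focus ratio had medians of 0.780 and 0.783. The top decile of scores held 17 of the 156 peaks (10.9%, against 10% of all peaks). They lay near 11 of the 31 genes (35.5%), against 8.07% of all protein-coding genes. The 31 genes had a median of 2 peaks each, against 0 over all protein-coding genes. This share of genes was not compared among genes of like territory or like peak number. Over the 21 genes with a peak, the highest score went with the number of peaks (Spearman rank correlation 0.69, a description over 1 list). A maximum taken over more peaks tends to be higher whatever their scores, so this value does not relate peak strength to peak number. By role, 6 of the 17 peaks in the top decile were near class 3 ligands, 3 near membrane ligands, 5 near plexins and 3 near neuropilins.

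The 156 peaks lay farther from starts than the peaks of the whole list. The median distance to the nearest TSS was 95.5 kb, against 51.3 kb over all peaks, and 10.9% lay within 10 kb (6.48 to 16.9), against 20.9%. Farther than 250 kb lay 18.6% (12.8 to 25.6), against 13.7%. Introns held 55.8% of the 156 peaks (47.6 to 63.7), against 45.4%, and intergenic sequence held 37.8%, against 40.7%. These classes follow the basic transcripts, so the 8 Sema3a peaks in its wider annotated span upstream of the basic TSS count as intergenic. No peak was classed to a coding exon or a 5′ untranslated region, which allows a share of up to 2.34% for each class. Over all peaks the shares were 0.514% and 0.506%. Bases near a start count as promoter first, so the Sema3e promoter peak, which overlaps the 5′ end of the transcript, is not among these classes. Long territories place more bases far from a start, and their part in these distances was not tested.

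**Figure D5:**
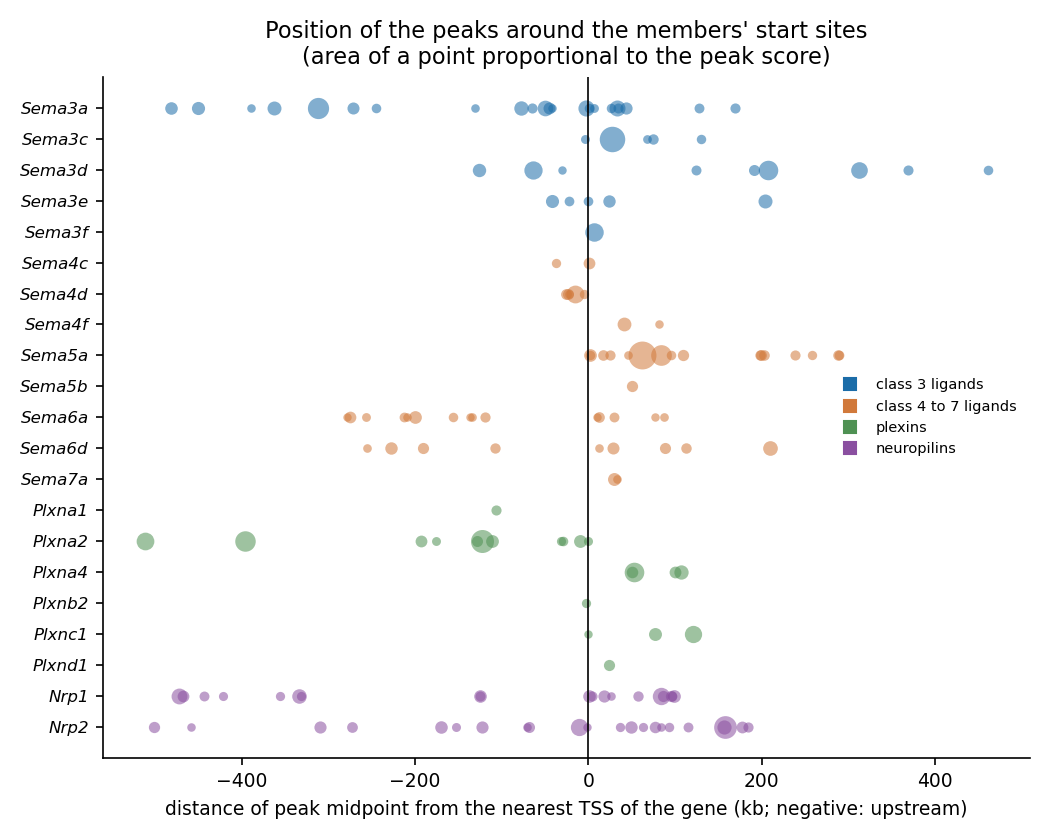
Distance in kb of each peak midpoint from the nearest TSS of its gene (negative values upstream), for the genes with a peak, with the area of a point proportional to the peak score and its colour giving the role. All 11 Plxna2 peaks lie upstream, all 16 Sema5a peaks lie downstream, and the Nrp1 and Nrp2 peaks lie on both sides.

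Peaks at the promoters themselves were few and low. Counting 1000 bp upstream to 100 bp downstream of a protein-coding TSS as the promoter, 3 of the 31 genes (9.68%) had a promoter peak, against 6.68% of all protein-coding genes. These were 3 of the 156 peaks (1.92%, 0.398 to 5.52), against 5.88% of all peaks. The Sema3e promoter peak (chr5:14025262-14025474) scored 13.4, was centred 92 bp downstream of the TSS and held 1 core, shown here on the plus strand within 29 bases, since the window overlaps the 5′ end of the transcript.
Sema3e, chr5:14025349-14025377, plus strand: tgaactttcctGTAAACAgagcgctgaca

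The Plxnc1 promoter peak (chr10:94944993-94945205) scored 10.2 and lay 264 bp upstream of the TSS. The Plxna2 promoter peak (chr1:194618833-194619045) scored 11.8 and lay 886 bp upstream of the TSS of the basic transcript set. It was inside the wider annotated span of Plxna2, which begins at chr1:194618218. With starts of the comprehensive transcript set it was not a promoter peak, whereas the Sema3a peak of 20.9, 95 bp upstream of a start, was. That start belongs to a Sema3a transcript annotated as a processed transcript, not as a protein-coding one. Neither the Plxnc1 nor the Plxna2 peak held a core. Sema4c had a peak of 19.9 in intron 1 of 14, just beyond a promoter, centred 318 bp downstream of the nearest of its TSSs, which is an internal one, and also without a core. Within 10 kb of a TSS, 12 of the 31 genes (38.7%) had a peak, against 19.4% of all protein-coding genes. Counted by peak the order was reversed, with 10.9% of the 156 peaks within 10 kb, against 20.9% of all peaks. The share of genes was not compared among genes of like territory. For 9 genes with peaks (Sema3d, Sema4f, Sema5b, Sema6a, Sema6d, Sema7a, Plxna1, Plxna4 and Plxnd1) every peak lay farther than 10 kb.

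The spacing of neighbouring peaks of a gene was near that of the whole list. The median gap was 21.1 kb over 135 pairs, against 22.5 kb over the 17532 pairs of all protein-coding genes. Within 5 kb stood 23 pairs (17%, against 17.2%), and within 1 kb stood 7 (5.19%, against 4.1%). These 7 were 3 in Sema5a, 2 at Nrp1, 1 at Nrp2 and 1 at Sema4d.

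The 10 genes without a peak were compared with the 21 that had one. Those without (Sema3b, Sema3g, Sema4a, Sema4b, Sema4g, Sema6b, Sema6c, Plxna3, Plxnb1 and Plxnb3) had territories of 20.3 to 64.4 kb with a median of 30.9 kb. Those with a peak had territories of 28.5 to 1420 kb with a median of 347 kb. All 15 genes with a territory above 100 kb had a peak, and 5 of the 15 below 70 kb did (Sema3f, Sema4c, Sema7a, Plxnb2 and Plxnd1). In the territory deciles of the longer group, 57.2 to 81.5% of all protein-coding genes had a peak. In those of the shorter group, 14.2 to 45.1% did. Gene lengths had medians of 15.5 kb without and 133 kb with a peak, but their ranges overlapped (11.6 to 39.7 kb without, 9.71 to 578 kb with). In the territory deciles of the 10 genes without a peak, a mean of 22.0% of all genes had one. Plxna3 and Plxnb3 are on the X chromosome, where 20.4% of the 948 protein-coding genes had a peak and peaks were sparse throughout (0.215 per 100 kb), and a lower recovery of the X cannot be told apart from fewer sites at these 2 genes.

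The partners and effectors of semaphorin signalling were read from a list of 34 genes taken for their known part in the pathway, with earlier results of these data known. Of these, 21 (61.8%) had a peak, against 37.3% of all protein-coding genes and a mean of 46.1% in their territory deciles. They held 78 peaks, of which 55 (70.5%) had a core, and the median was 1.5 peaks per gene. Mical2, a redox enzyme that disassembles actin filaments, had the most with 11 peaks, at 5.27 per 100 kb, and a highest score of 30.4. Farp1, a guanine nucleotide exchange factor for small GTPases, had 9 with a highest score of 34.5. Fyn, a kinase downstream of plexin A, had 7 (highest 35.1).

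Dpysl3, a collapsin response mediator, had 6 peaks (highest 42.4). Chl1, an adhesion molecule that associates with neuropilin 1, also had 6, with a highest score of 62.0. Vegfa, the other class of neuropilin ligand, had 5 (highest 33.5). The 13 without a peak were Dpysl5, Crmp1, Mical1, Farp2, Fes, Rhoa, Gipc1, Cdk5, Nrcam, Erbb2, Cd72, Trem2 and Tyrobp. Nrcam, a co-receptor partner of neuropilin 2, was without a peak in a territory of 396 kb. Rhoa could hardly be assigned one, since its start lies beside that of Tcta and its territory is 0.085 kb.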

How the data were processed

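Anti-FLAG ChIP-seq (2 libraries) and input (1 library) of E12.5 Foxf2FLAG/FLAG tongues were given as 1 peak list. Reads were aligned to mm10 with Bowtie2 2.4.1 and handled with SAMtools 1.7.1, and peaks were called with HOMER against the input, per the submitters' processing notes. Not given in the sources used here were HOMER's version, its settings and any pooling of libraries. The peak score is the authors' deposited value on an unstated scale and was used only to rank, describe and filter peaks. The last column was read as the focus ratio, a fraction as deposited by the authors, since all peaks were 212 bp wide (end minus start).

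Peaks outside assembled chromosomes (3) were dropped. Nearest genes, territories and classes came from GENCODE M21 basic transcripts, with the class at the midpoint taken in the order promoter, transcript end, exon classes, intron, intergenic. Cores were matched in the central 200 bp, and sequences are those of the RefSeq GRCm38 assembly, the same build. Intervals are exact (Clopper-Pearson, 95%) and cover counting of peaks only. With 1 list and no depth, nothing was tested. Work was done with pysam 0.24.0, matplotlib 3.10.9, scipy 1.17.1, pandas 2.3.3, numpy 2.4.6 and Python 3.11.15, and the assignment and motif steps were tested on simulated data.

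The 31 genes, the pathway list, the motifs and the rules were chosen with earlier results of these data known. By the naming rule, every gene is accounted for, and single peaks are described for the 10 highest scores, promoter peaks and the best of each role. The 6 pathway genes with most peaks and all without a peak are named. Other single peaks described, the nearest annotated start of Sema3a and the shared runs were chosen after their values were seen.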

Additional observations from a re-analysis of the deposited data

How the results depend on the processing

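Of 42 alternatives, 27 left counts within 1.5 times of the main value, and medians and shares within its 95% interval, and 15 moved the value farther. The number of genes with a peak stayed between 15 and 21 except with peaks within 10 kb of a TSS alone, which left 12 (38.7%, against 19.4% of all protein-coding genes), and 13 in place of 21 pathway genes. The 156 peaks became 79 with scores at or above the median of the list, 17 within 10 kb, 81 within 100 kb, 66 when starts of all annotated genes, noncoding included, could be nearest, and 86 inside the gene bodies. With noncoding starts, Sema3d, Sema4f, Sema5b, Sema7a, Plxna1 and Plxna4 had no peak left. The share over all protein-coding genes fell as well. In the main setting, 67.7% of the semaphorin, plexin and neuropilin genes had a peak, against 37.3% of all protein-coding genes. These shares were 61.3% and 24.6% with scores at or above the median, and 64.5% and 35.1% within 100 kb. They were 48.4% and 25.9% with noncoding starts, and 58.1% and 23.4% inside the gene bodies. The median density of 1.22 per 100 kb became 0.631 with the upper scores or within 100 kb, and 0 within 10 kb or with noncoding starts. The median score of 16.25 became 13.2 within 10 kb. The core share of 72.4% became 79.7% with the upper scores and 23.7% with GTAAACA alone, and the promoter share of 1.92% became 0 with the upper scores. Starts of the comprehensive transcript set (21 genes, 155 peaks) and TAAACA (70.5%) were alternatives chosen after seeing the data. The list holds no values per library, so leaving out each ChIP replicate was not run. No paired analysis was possible because no column of the list belongs to a single library. The depth behind each peak is unknown, so a gene without a peak is a gene for which none was listed.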

Other observations

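Of the peaks inside the 31 gene bodies, 2 were nearest to the start of another gene and are not among the 156. A peak of 11.8 inside Plxna2 was nearest to Cd34, and a peak of 22.5 inside Plxna4 was nearest to 1700012A03Rik.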
